A study of Mus musculus with 6 samples.

Results

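The oxidative phosphorylation genes were taken as the rows of the liver count table whose Ensembl ID maps, in the GRCm38 annotation, to a protein-coding gene with a symbol that starts with Nduf, Uqcr, Cox4, Cox5, Cox6, Cox7, Cox8, Atp5 or mt-, or that is Sdha, Sdhb, Sdhc or Sdhd. This gave 107 of 54682 rows: 76 for subunits encoded in the nucleus, 13 for subunits encoded in mitochondrial DNA, 10 for assembly or accessory factors that share a prefix (the Ndufaf genes, Cox7a2l and Atp5s), and 8 for isoforms best known from other tissues or conditions. The livers came from 3 mice homozygous for a targeted Cd44 deletion (Cd44-/-, strain B6.Cg-Cd44tm1Hbg/J, called KO) and 3 wild-type mice (WT). Every mouse, of either genotype, took a Lieber-DeCarli liquid diet holding 5% ethanol by volume for 10 days, was gavaged with ethanol at 5 g/kg on day 11 and was killed 9 hours later. The deletion is in all cells of the animal, no mouse without ethanol was analysed here, and the comparison asks how ethanol-exposed livers differ with and without CD44, a hyaluronan receptor carried by many leukocytes.

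Oxidative phosphorylation runs in the inner mitochondrial membrane. Complexes I (NADH dehydrogenase) and II (succinate dehydrogenase) pass electrons to coenzyme Q, complex III passes them to cytochrome c, and complex IV (cytochrome c oxidase) passes them to oxygen, while complexes I, III and IV pump protons that complex V (ATP synthase) uses to make ATP. Complexes I, III, IV and V are built from nuclear and mitochondrial gene products, so their supply depends on both genomes, and complex II is nuclear only. Hepatocytes are rich in mitochondria, and mitochondrial damage is a known feature of the ethanol-exposed liver.

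Total counts were 15493009 to 19346623 per library, so that 3 counts, the limit a count of 0 allows, corresponded to 0.15 to 0.206 CPM after TMM scaling, in which counts are scaled to a common library size. Levels below are on that scale. Where genes are compared with each other, levels are CPM per kilobase of summed exon length. That length joins the exons of all annotated transcripts of a gene, so the order of genes per length depends on the annotation. Fold changes are KO over WT on the log2 scale, with the standard error (SE) after the ± sign, from edgeR's quasi-likelihood test, and adjusted p values are Benjamini-Hochberg over 14145 genes. Cd44 had 1, 0 and 0 counts in KO mice 1, 2 and 3, against 590, 175 and 568 in WT mice 1, 2 and 3 (adjusted p = 0.00647 in edgeR), so each library fitted its label. Kupffer cell and macrophage markers had lower levels in KO mice: all 15 tested lay below 0 (median log2 fold change −1.17), of which 7 passed an adjusted p of 0.05 in DESeq2 and 0 in edgeR (14 at an unadjusted p under 0.05), and their summed level was 421.5 to 471 CPM in KO mice, against 536 to 1273 CPM in WT mice. Hepatocyte markers (12 tested, 10 above 0, median 0.17) summed to 112975 to 142408 CPM in KO mice and to 105922 to 123861 CPM in WT mice, and none of either list was at 0 in every library. Of the other cell type lists, medians were −0.64 for neutrophil (3 tested), −0.65 for cholangiocyte (5), −0.46 for stellate cell (9), −0.19 for endothelial (8), −0.48 for erythroid (5) and 0.07 for lymphocyte markers (4). The part of cell mix in the values below was not tested, and in bulk RNA fewer cells of a type and less RNA per cell cannot be told apart.

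RNA of the nuclear-encoded subunits of the respiratory chain and ATP synthase was close to the same level in KO and WT livers. For the mitochondrial genes the intervals were too wide to say so. Of the 107 rows, 100 were tested; the 7 others had too few counts. None of the 100 passed an adjusted p of 0.05 in edgeR, in DESeq2 or in limma-voom. Of all genes tested 0.0141% passed in edgeR, 2.03% in DESeq2 and 0 in limma-voom. At an unadjusted p under 0.05 edgeR gave 3 members higher in KO mice and 0 lower, against 5.22% and 7.59% of all genes. DESeq2 gave 2 members, against 11.9% of all genes. From limma-voom there were also 2, against 1685 of all 14145 genes. The median log2 fold change of the 100 members was 0.07, beside −0.01 over all genes tested, and 73 lay above 0, beside 48.9% of all genes. Abundant genes leaned the same way. Of the 4643 tested genes with a mean log2 CPM of at least 5, 2595 lay above 0, with a median of 0.03. Of these, 304 were higher and 217 lower at an unadjusted p under 0.05 in edgeR.

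The nuclear subunits were the tightest group. Their 75 tested members had log2 fold changes between −0.13 and 0.34 with a median of 0.06, and 74 of them (98.7%) lay within 0.26 of 0, which is 1.2-fold. The same window held 60.6% of all genes tested and 76.7% of the 4643 genes with a mean log2 CPM of at least 5. For 72 of the 75 the whole 95% interval lay within 0.58 of 0, which is 1.5-fold, so larger differences between these genotypes fall outside those intervals. The 3 others were the complex I genes Ndufa1, Ndufa12 and Ndufb2. The median SE was 0.14 for nuclear subunits and 0.28 for mitochondrial genes, and no mitochondrial gene's interval lay inside that window, so the mitochondrial values are less exact.

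**Figure D1:**
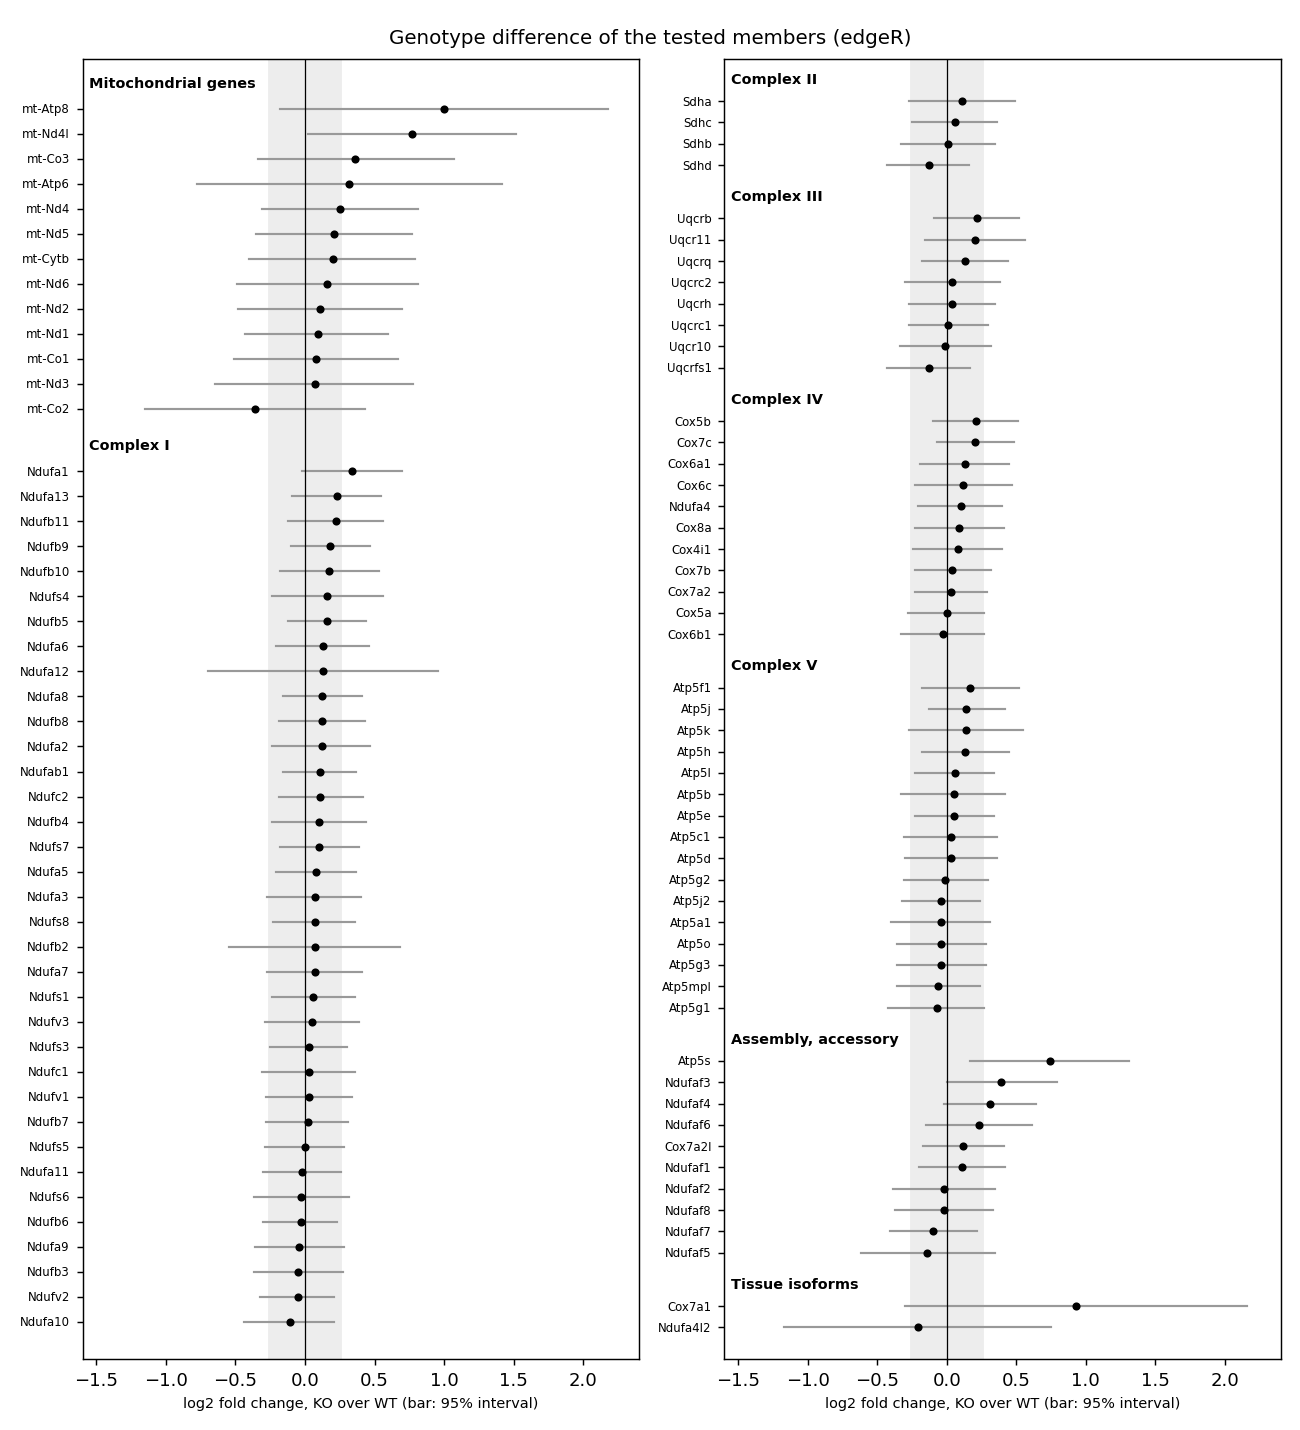
The log2 fold change, KO over WT, is on the x axis for the tested members, with its 95% interval as a bar; members are grouped by complex and class and the grey band is 0.26 on either side of 0. Nearly all nuclear subunits sit inside the band, while mt-Atp8, mt-Nd4l, Atp5s and Cox7a1 have the largest values and wide intervals.

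Complex I takes electrons from NADH through the flavin subunit Ndufv1 and a chain of iron-sulphur clusters in the Ndufs and Ndufv subunits, around which the Ndufa, Ndufb and Ndufc subunits form a shell. Of its 36 nuclear subunits 27 lay above 0, with a median log2 fold change of 0.07, and none reached an unadjusted p of 0.05. The smallest p was that of Ndufa1, a small membrane subunit needed for assembly, with 37.1, 33.9 and 47.9 CPM in KO mice and 31.7, 28.4 and 34 CPM in WT mice (log2 fold change 0.34 ± 0.16, edgeR adjusted p = 0.42). KO mouse 3 stood above the rest and KO mouse 2 lay just under WT mouse 3, so the genotypes overlapped. Ndufa13, also known as GRIM-19, had 77.1, 76.1 and 97.4 CPM in KO mice, against 64.7, 72.3 and 76.5 CPM in WT mice (0.23 ± 0.14). The accessory subunit Ndufb11 had 83, 82.8 and 112 CPM in KO mice, against 76.4, 84.8 and 77.5 CPM in WT mice (0.22 ± 0.15). In both, KO mouse 3 was highest and the other KO mice were within or close to the WT range.

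Core subunits of complex I named here lay close to 0. Ndufv1 had a log2 fold change of 0.03 ± 0.13, Ndufs1 0.06 ± 0.13, Ndufs3 0.03 ± 0.12, Ndufs7 0.1 ± 0.12, Ndufs8 0.07 ± 0.13 and Ndufv2 −0.05 ± 0.12. The most abundant nuclear complex I transcripts per length were Ndufa8 at 120.3 CPM per kilobase and Ndufa2 at 111. Ndufa8, an intermembrane-space subunit, had 106, 101 and 117 CPM in KO mice, against 107, 102 and 88.4 CPM in WT mice, and Ndufa2 had 60.7, 58.6 and 78.2 CPM in KO mice, against 53.9, 58.7 and 69.7 CPM in WT mice. The genotypes overlapped in both.

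Ndufa12, a complex I accessory subunit, varied more between mice than any other nuclear subunit. Its level was 20.4, 27 and 22 CPM in KO mice, against 12.5, 34.3 and 16.9 CPM in WT mice, a 2.75-fold range over the 6 livers, where the median nuclear subunit had a 1.28-fold range. WT mouse 2 was highest and WT mouse 1 lowest, so the KO mice lay inside the WT range (log2 fold change 0.13 ± 0.35; 0.67 without WT mouse 2, where the edgeR adjusted p = 0.16; −0.14 without WT mouse 1). Ndufa12 (ENSMUSG00000020022, chromosome 10, 94198720 to 94221443, plus strand) has a processed pseudogene copy on another chromosome, Gm15920 at chr5:130188395-130188796, that matches its transcript over 402 bases with 2 differences. Stretches of the coding strand around both differences, from GENCODE M21 transcripts on GRCm38, are printed 5′ to 3′ with the differing base in capitals, to show how little sets the genes apart. The first Ndufa12 stretch joins exons between 94199119 and 94203313 and the second lies at chr10:94220777-94220858.
Ndufa12, first difference: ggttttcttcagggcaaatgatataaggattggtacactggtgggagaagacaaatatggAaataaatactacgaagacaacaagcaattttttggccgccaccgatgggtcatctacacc
Gm15920, first difference: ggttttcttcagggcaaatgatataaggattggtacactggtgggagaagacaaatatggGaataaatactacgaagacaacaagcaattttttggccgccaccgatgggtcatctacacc
Ndufa12, second difference: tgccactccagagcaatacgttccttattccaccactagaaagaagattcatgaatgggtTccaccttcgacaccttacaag
Gm15920, second difference: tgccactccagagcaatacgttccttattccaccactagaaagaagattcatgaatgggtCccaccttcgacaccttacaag

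Counts of Gm15920 ran the other way between mice. The copy had 12.4, 10.7 and 14.1 CPM in KO mice, against 14.5, 6 and 14.7 CPM in WT mice. Its share of the counts of both genes was 37.8%, 28.3% and 39% in KO mice and 53.8%, 14.9% and 46.5% in WT mice, so WT mouse 2, with the most Ndufa12, had the smallest share. Summed over both genes the level was 32.9, 37.7 and 36.1 CPM in KO mice and 27, 40.3 and 31.5 CPM in WT mice, with a log2 fold change of 0.11 (edgeR adjusted p = 0.841). How reads that match both genes were counted was not recorded in the labels, and its part in the spread of Ndufa12 was not tested.

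**Figure D2:**
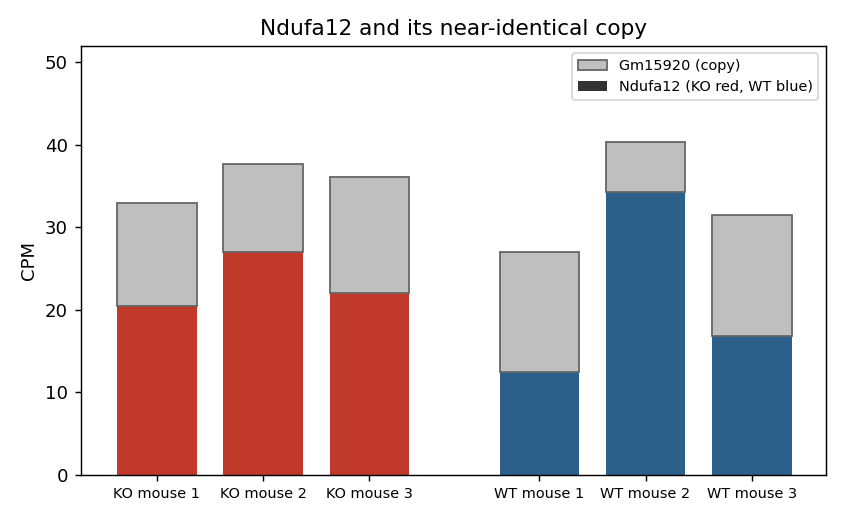
Bars give CPM in each mouse for Ndufa12 (red in KO, blue in WT) with its copy Gm15920 (grey) stacked on top. The summed bars span 27 to 40.3 CPM, less in proportion than the coloured bars, which span 12.5 to 34.3 CPM.

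Such copies were found for other nuclear members too. In all 15 nuclear members had a pseudogene of at least 97% identity over 200 bases or more, and for 5 the copies held over 10% as many counts as the member: Ndufa12 (55.6%), Atp5g1 with Gm10039 (29.4%), Atp5l with Gm10221 (23.6%), Atp5h with Gm10250 (13.9%), and Ndufab1, whose copies Gm4459 and Ndufab1-ps held 13.4% and 11.3%. Cox5b has a close copy annotated as protein-coding, Gm11273, with 12.1%. The shares differed less between mice there than for Ndufa12; for Atp5l the copy took 18.5% to 19.9% of the summed counts in KO mice and 18.3% to 20.3% in WT mice. In addition 29 nuclear members share exon bases with a gene on the opposite strand, and the library protocol describes no step that marks strand, so reads there cannot be assigned with certainty. Examples are Ndufa13 (375 bases with Tssk6), Ndufb2 (146 with Braf), Ndufb11 (117 with Rbm10), Atp5f1 (337 with Wdr77), Atp5j (397 with Gabpa), Atp5a1 (129 with Haus1) and Cox4i1 (154 with Emc8). Exon bases were shared with a gene on the same strand for 6 nuclear members. Among them were Ndufb2 (145 bases with Gm42420), Ndufb8 (134 with Gm20538) and Ndufb9 (201 with Gm49356).

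Complex II had no member with an unadjusted p under 0.05. Sdha, the flavin subunit that oxidises succinate, had 506, 499 and 559 CPM in KO mice, against 479, 563 and 406 CPM in WT mice (log2 fold change 0.11 ± 0.16). Sdhc, a membrane anchor, had 165, 151 and 181 CPM in KO mice, against 153, 178 and 147 CPM in WT mice (0.06 ± 0.13). Sdhd, the other anchor, had 191, 165 and 182 CPM in KO mice, against 176, 209.7 and 204 CPM in WT mice (−0.13 ± 0.13). The genotypes overlapped in each, and the iron-sulphur subunit Sdhb lay at 0.01 ± 0.15.

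In complex III, 6 of 8 nuclear subunits lay above 0 and the median was 0.04. Uqcrb, a ubiquinone-binding subunit, had 88.2, 77.3 and 88.1 CPM in KO mice, against 64.8, 83.4 and 70.2 CPM in WT mice (0.22 ± 0.13). Uqcr11, a small accessory subunit, had 75.5, 75.3 and 106 CPM in KO mice, against 73.7, 78.4 and 71.7 CPM in WT mice (0.2 ± 0.16). For Uqcrb WT mouse 2 reached into the KO range (0.33 without it, edgeR adjusted p = 0.262), and for Uqcr11 KO mouse 3 alone stood above the other mice. The small subunit Uqcrq had 243, 228 and 289 CPM in KO mice, against 231, 235 and 228 CPM in WT mice. Uqcr10, the most abundant per length at 158 CPM per kilobase, had 85.1, 89.6 and 100.2 CPM in KO mice, against 80.4, 88.2 and 108 CPM in WT mice. The Rieske iron-sulphur subunit Uqcrfs1, next in level at 142 CPM per kilobase, had 184, 166 and 204 CPM in KO mice, against 189, 213 and 203 CPM in WT mice (−0.13 ± 0.13). The genotypes overlapped in all of these.

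In complex IV, Cox7c was the single nuclear subunit of any complex whose genotypes did not overlap. It had 161, 152 and 171 CPM in KO mice, against 129.5, 142 and 148 CPM in WT mice, a log2 fold change of 0.2 ± 0.12 (edgeR adjusted p = 0.525). The lowest KO mouse stood just above the highest WT mouse. Over all 100 members the genotypes did not overlap for 5 higher and 0 lower in KO mice, against 8.81% and 9.42% of all genes tested. Cox5b, a zinc-binding subunit, had 97.6, 103 and 123 CPM in KO mice, against 99.7, 85 and 96.2 CPM in WT mice (0.21 ± 0.13). For Cox5b KO mouse 1 lay inside the WT range.

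The most abundant nuclear subunit of all per length was Cox6a1, the liver-type form of subunit VIa, at 419 CPM per kilobase. That rank rests on a summed exon length of 702 bases, against 4237 for Atp5b and 3135 for Atp5a1, which were higher in CPM. Cox6a1 had 279, 300.3 and 343 CPM in KO mice, against 264, 279 and 299 CPM in WT mice (0.13 ± 0.14). Cox8a, second in complex IV at 289 CPM per kilobase, had 168, 174 and 213 CPM in KO mice, against 161, 171 and 188 CPM in WT mice (0.09 ± 0.14). Ndufa4, which carries a complex I name but is known as a complex IV subunit and was counted there, had 166, 159 and 201 CPM in KO mice, against 162, 173 and 157 CPM in WT mice (0.1 ± 0.13). KO mouse 3 was highest in each of the 3 genes and the other mice were mixed.

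Isoforms known from muscle, lung, testis or other tissues had few counts. Cox4i1 had 305, 321 and 377 CPM in KO mice, against 295, 331 and 321 CPM in WT mice, while its paralog Cox4i2 had 1, 4 and 0 counts in KO mice and 7, 5 and 2 counts in WT mice. Cox6a2, the muscle and heart partner of Cox6a1, had 4, 5 and 0 counts in KO mice and 3, 0 and 5 in WT mice, and Cox8b had 6, 4 and 1 counts in KO mice and 0, 9 and 0 in WT mice. Cox7b2 and Cox8c were at 0 in all 6 libraries, which allows up to 0.206 CPM, the limit in KO mouse 3. Cox6b2, the testis partner of Cox6b1, had 2, 9 and 2 counts in KO mice and 5, 4 and 48 in WT mice, so WT mouse 3 alone stood out, at 2.45 CPM; Cox6b1 itself had 112, 111 and 133 CPM in KO mice, against 109, 124 and 130.5 CPM in WT mice.

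Cox7a1 and Ndufa4l2 were the only isoforms of this kind with enough counts for a test. Cox7a1, the heart and muscle form, had 23, 28 and 19 counts in KO mice, against 20, 2 and 18 in WT mice, or 1.53, 1.4 and 1.3 CPM in KO mice and 1.09, 0.131 and 0.917 CPM in WT mice. WT mouse 2 was far below the other mice, and the log2 fold change was 0.93 ± 0.53 (edgeR adjusted p = 0.522) with all mice and 0.5 without it. Its liver partner Cox7a2 had 88.4, 83.1 and 97.8 CPM in KO mice, against 88.4, 85.2 and 90.1 CPM in WT mice (0.03 ± 0.11), and Cox7a2l, a related factor of respiratory supercomplexes, had 112, 99.9 and 114 CPM in KO mice, against 88.4, 101 and 110.2 CPM in WT mice (0.12 ± 0.13). Ndufa4l2, a paralog of Ndufa4 known to respond to low oxygen, had 0.597, 1.45 and 1.92 CPM in KO mice, against 1.36, 1.57 and 1.68 CPM in WT mice (−0.21 ± 0.42).

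In complex V none of the nuclear subunits reached an unadjusted p of 0.05. Its 16 tested nuclear subunits had a median of 0.03 and lay between −0.07 and 0.17. The catalytic head is made of alpha and beta subunits. Atp5b (beta) had 1231, 1246 and 1482 CPM in KO mice, against 1199, 1344 and 1292 CPM in WT mice (0.05 ± 0.16), and Atp5a1 (alpha) had 954, 886 and 1062 CPM in KO mice, against 995, 1058 and 938 CPM in WT mice (−0.04 ± 0.16). Per length Atp5b stood at 307 and Atp5a1 at 313 CPM per kilobase. The genotypes overlapped in both.

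The stalk subunits and the c-ring of complex V were similar. Atp5f1 had 296, 269 and 352 CPM in KO mice, against 245, 299 and 271 CPM in WT mice (0.17 ± 0.15). Atp5j had 132, 120.1 and 146 CPM in KO mice, against 115, 125 and 120.1 CPM in WT mice (0.14 ± 0.12), and Atp5h had 111, 105 and 137 CPM in KO mice, against 106, 114 and 101 CPM in WT mice (0.13 ± 0.14). These had the 3 smallest p values among the nuclear subunits of the complex (edgeR adjusted p from 0.688 to 0.749), and the genotypes overlapped in each. The c-ring protein is encoded by 3 genes that differ in their targeting peptides. Atp5g3 was the most abundant of them per length at 146 CPM per kilobase, followed by Atp5g2 at 52.3 and Atp5g1 at 24.7. The order of Atp5g2 and Atp5g1 rests on summed exon length, which is 1675 bases for Atp5g2 and 4912 for Atp5g1. In CPM Atp5g1 was above Atp5g2 in every mouse. Atp5g3 had 304, 286 and 350.0 CPM in KO mice, against 294, 331 and 341 CPM in WT mice (−0.04 ± 0.14). Atp5g2 had 86.4, 83.1 and 92.8 CPM in KO mice, against 74.5, 91 and 97.8 CPM in WT mice (−0.01 ± 0.13), and Atp5g1 had 112, 109 and 134 CPM in KO mice, against 121, 108 and 145 CPM in WT mice (−0.07 ± 0.15). The genotypes overlapped in all 3 genes.

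The assembly and accessory factors held both nuclear members with an unadjusted p under 0.05. Atp5s, known as coupling factor B, had 7.04, 7.11 and 9.19 CPM in KO mice, against 3.32, 5.22 and 5.45 CPM in WT mice (log2 fold change 0.74 ± 0.25, edgeR adjusted p = 0.29). Every KO mouse lay above every WT mouse, and the 6 libraries gave it 61 to 142 counts. The value ranged from 0.54 to 0.87 on leaving out a library, and the unadjusted p was no longer under 0.05 without KO mouse 3 (0.61). Ndufaf3, a complex I assembly factor, had 11.8, 12.4 and 13.4 CPM in KO mice, against 8.05, 11 and 9.53 CPM in WT mice (0.39 ± 0.17, edgeR adjusted p = 0.388). The genotypes did not overlap, but of the 6 fits that leave out a mouse the unadjusted p was under 0.05 only without WT mouse 2 (0.52). Ndufaf3 also shares 48 exon bases with Impdh2 on the opposite strand.

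Ndufaf4, another complex I assembly factor, had 45.1, 44.1 and 49.4 CPM in KO mice, against 34.7, 44.4 and 32.6 CPM in WT mice. WT mouse 2 lay among the KO mice, and the log2 fold change was 0.31 ± 0.14 with it and 0.47 without it (edgeR adjusted p = 0.419 and 0.141). The remaining Ndufaf genes lay between −0.14 (Ndufaf5) and 0.23 (Ndufaf6). On chromosome 2, which carries Cd44, 7 members were tested; the nearest was Ndufs3 at 11.9 Mb, and their log2 fold changes ran from −0.14 to 0.12.

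**Figure D3:**
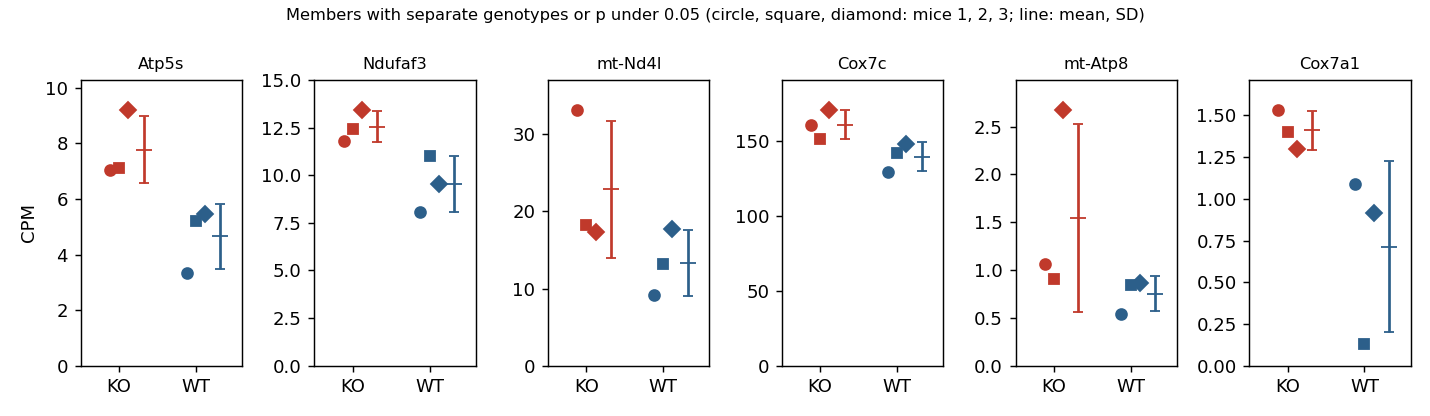
CPM in each mouse for the 6 members whose genotypes did not overlap or whose unadjusted p was under 0.05, with KO left of WT, symbols for mice 1, 2 and 3, and mean and SD as lines. Atp5s, Ndufaf3 and Cox7c separate by genotype, narrowly for Ndufaf3 and Cox7c. For Atp5s KO mouse 3 is highest (9.19 CPM) and WT mouse 1 lowest (3.32 CPM). KO mouse 1 stands apart for mt-Nd4l (log2 fold change 0.42 without it), KO mouse 3 for mt-Atp8 (0.38 without it) and WT mouse 2 for Cox7a1 (0.5 without it).

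The mitochondrial genes held 4.62% to 5.88% of all counts in KO mice and 4.55% to 5.62% in WT mice, and the nuclear members 1.04% to 1.14% in KO mice and 1.04% to 1.18% in WT mice. The log2 ratio of mitochondrial to nuclear counts was 2.34, 2.11 and 2.36 in KO mice, against 2.13, 2.38 and 2.07 in WT mice. Its mean was 2.27 ± 0.14 in KO mice and 2.19 ± 0.16 in WT mice (SD, n = 3 each), a difference of 0.08 that is smaller than the spread within a genotype. WT mouse 2 had the highest ratio and WT mouse 3 the lowest, so the KO mice lay inside the WT range. An exact two-sided permutation test of 3 against 3 mice cannot go below p = 0.1 and was not used. Most of these RNAs carry short poly(A) tails and the libraries were selected on poly(A), so the ratio describes poly(A)-selected RNA.

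Of the 13 mitochondrial genes 12 lay above 0, with a median log2 fold change of 0.2, and mt-Co2 was the exception. The genes fell into 2 sets by level. mt-Co1, mt-Cytb, mt-Nd1, mt-Nd2, mt-Nd4, mt-Nd5 and mt-Nd6 had 2390.1 to 14340.0 CPM per kilobase, and mt-Co2, mt-Co3, mt-Atp6, mt-Atp8, mt-Nd3 and mt-Nd4l had 5.63 to 220.5, although all but mt-Nd6 are cut from the same long heavy-strand transcript. The sets were the same in both genotypes, as the plot of mitochondrial levels shows.

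**Figure D4:**
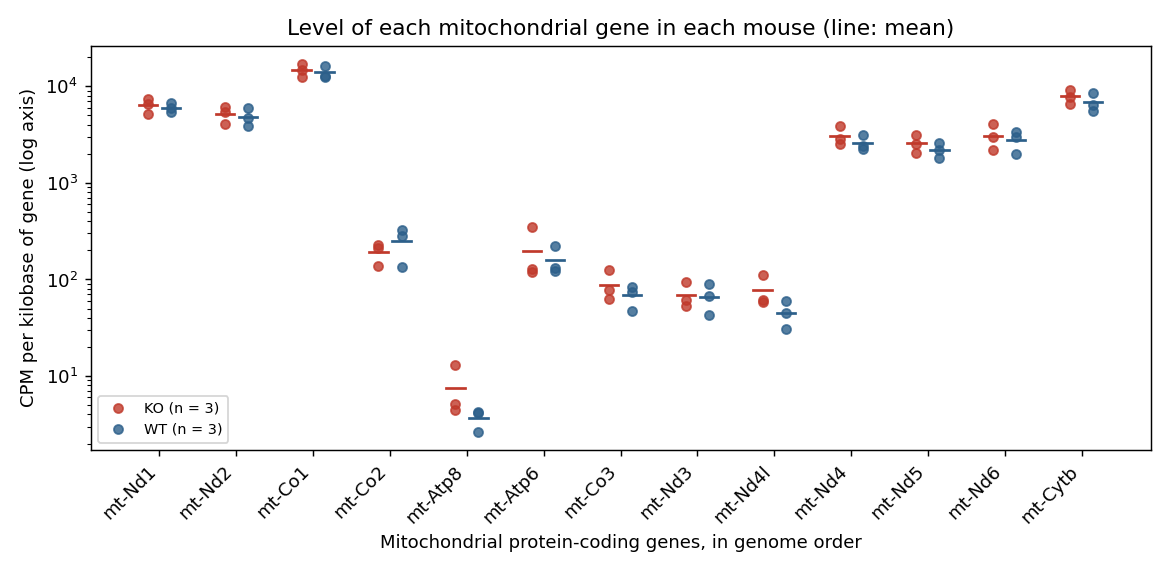
Each point is the level of a mitochondrial gene in a mouse, in CPM per kilobase on a log axis, with genes in genome order, KO in red left of WT in blue and means as lines. The block from mt-Co2 to mt-Nd4l averages 220.5 CPM per kilobase or less over the 6 mice, between genes that average 2390.1 or more.

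Of the 6 genes at the low level 5 have an annotated copy in the nuclear genome, in a block of mitochondrial origin on chromosome 1. Each copy is identical or nearly so over almost the whole gene. mt-Co2 matched Gm28661 over 681 bases, mt-Co3 matched Gm28437 over 783, mt-Atp6 matched Gm10925 over 678 and mt-Nd4l matched Gm10222 over 294, each with 0 differences, and mt-Nd3 matched Gm28438 over 345 bases with 1 difference. Among the abundant genes mt-Nd4 matched its copy Gm28439 over 876 of 1378 bases and mt-Co1 its copy Gm29216 over 483 of 1545, while a copy of mt-Co1 on chromosome 2, Gm13340, spans all 1545 bases with 37 differences. The starts of mt-Nd3 (chrM:9459-9579, plus strand) and Gm28438 (chr1:24612999-24613119, minus strand), and of mt-Co1 (chrM:5328-5447, plus strand) and Gm13340 (chr2:22589528-22589647, minus strand), are printed from GENCODE M21 on GRCm38 with differing bases in capitals, to set a near-identical copy beside one with more differences.
mt-Nd3: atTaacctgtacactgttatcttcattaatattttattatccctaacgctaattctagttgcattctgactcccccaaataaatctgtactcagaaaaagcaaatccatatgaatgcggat
Gm28438: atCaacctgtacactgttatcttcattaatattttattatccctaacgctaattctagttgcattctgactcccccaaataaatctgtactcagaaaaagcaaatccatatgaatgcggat
mt-Co1: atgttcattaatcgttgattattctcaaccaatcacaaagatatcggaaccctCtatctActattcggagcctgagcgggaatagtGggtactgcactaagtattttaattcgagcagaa
Gm13340: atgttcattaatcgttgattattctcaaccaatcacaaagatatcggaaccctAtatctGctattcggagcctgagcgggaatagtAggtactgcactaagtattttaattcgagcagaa

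Counts deposited for these copies were not small beside those of the genes. Gm28661 had 86.2, 75.6 and 122 CPM in KO mice, against 73.5, 81.5 and 72.9 CPM in WT mice, which is 56.4% as many counts as mt-Co2 itself over the 6 libraries. The share was 62.2% for Gm10925 beside mt-Atp6, 50.4% for Gm28437 beside mt-Co3, 36.6% for Gm10222 beside mt-Nd4l and 15.2% for Gm28438 beside mt-Nd3. For the abundant mt-Co1 it was 0.135% with Gm29216 and 0.0356% with Gm13340. Summed with their copies, the low genes that have one still had only 14 to 336 CPM in any mouse. Each of the abundant genes had 1031 CPM or more in every mouse. For mt-Atp8, the least abundant and only 204 bases long, the search of annotated transcripts gave no copy with the minimum of 200 matching bases. Sequence outside annotated transcripts was not searched, so a nuclear copy of mt-Atp8 may have been missed. The part of near-identical copies in the low levels was not tested, and levels of these 6 genes are not comparable with those of the other 7.

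mt-Atp8, a small subunit of the membrane part of complex V, overlaps mt-Atp6 on the same strand. Its 204 bases (chrM:7766-7969, plus strand, GRCm38, GENCODE M21) are printed with the 43 bases that it shares with mt-Atp6 in capitals, since reads there belong to both genes.
mt-Atp8: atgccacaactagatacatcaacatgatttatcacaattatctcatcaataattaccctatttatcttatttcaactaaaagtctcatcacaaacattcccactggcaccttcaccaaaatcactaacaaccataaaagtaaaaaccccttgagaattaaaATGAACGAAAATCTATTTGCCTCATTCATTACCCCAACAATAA
It had 16, 18 and 39 counts in KO mice, against 10, 13 and 17 in WT mice, or 1.06, 0.902 and 2.67 CPM in KO mice and 0.544, 0.848 and 0.866 CPM in WT mice. The genotypes did not overlap, but KO mouse 3 stood alone: the log2 fold change was 1.00 ± 0.51 (edgeR adjusted p = 0.468) and 0.38 without that mouse. mt-Atp6, the proton channel subunit, had 81.5, 87.2 and 236 CPM in KO mice, against 90.5, 82.4 and 150.5 CPM in WT mice (0.32 ± 0.46), and there too KO mouse 3 was highest and the other KO mice were no higher than WT mouse 1.

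mt-Nd4l was the only mitochondrial gene with an unadjusted p under 0.05. It had 33.1, 18.2 and 17.3 CPM in KO mice, against 9.14, 13.2 and 17.7 CPM in WT mice (log2 fold change 0.77 ± 0.32, edgeR adjusted p = 0.378). KO mouse 3 lay below WT mouse 3, so the genotypes overlapped. Summed with Gm10222 the level was 40.6, 24.3 and 26.7 CPM in KO mice, against 14, 20.8 and 22.4 CPM in WT mice (0.68, edgeR adjusted p = 0.311), and after summing the genotypes no longer overlapped. Without KO mouse 1 the value was 0.42 and the unadjusted p was no longer under 0.05, as was also so without WT mouse 1 (0.56) or WT mouse 2 (0.77).

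The other mitochondrial complex I genes encode the proton-pumping membrane arm. mt-Nd1 had 6260.3, 4995 and 7137 CPM in KO mice, against 5656, 6435 and 5209 CPM in WT mice (0.09 ± 0.22). mt-Nd2 had 5578, 4261 and 6399.5 CPM in KO mice, against 4847, 6204 and 3989.8 CPM in WT mice (0.11 ± 0.25). mt-Nd4 had 3931, 3519 and 5297 CPM in KO mice, against 3070.1, 4358 and 3283 CPM in WT mice (0.25 ± 0.24). In all of them KO mouse 3 was highest, and KO mouse 2 was lower than WT mouse 2. mt-Nd5 had 4597, 3715 and 5724 CPM in KO mice, against 3333, 4767 and 4021 CPM in WT mice (0.21 ± 0.24). mt-Nd6, the single protein gene of the other strand, had 1546, 1148 and 2121 CPM in KO mice, against 1031, 1729 and 1559.8 CPM in WT mice (0.16 ± 0.28). It shares 14 exon bases with mt-Nd5 on the opposite strand. Since no step that marks strand was described, reads from heavy-strand RNA across mt-Nd6 cannot be told from its own. mt-Nd3 had 21.4, 18.3 and 33 CPM in KO mice, against 15, 30.9 and 23.5 CPM in WT mice (0.07 ± 0.31). The genotypes overlapped in each of these 3 genes, and WT mouse 1 was lowest for mt-Nd5, mt-Nd6 and mt-Nd3.

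The mitochondrial genes of complexes III and IV encode the catalytic core of each. mt-Cytb, cytochrome b, had 8918, 7464 and 10592 CPM in KO mice, against 6422, 9862 and 7275 CPM in WT mice (0.2 ± 0.26). mt-Co1, the catalytic oxidase subunit, had 22825, 19329 and 26103 CPM in KO mice, against 19927, 25269.5 and 19478 CPM in WT mice (0.08 ± 0.26), and made up 40.8% to 43.2% of mitochondrial protein-coding counts in KO mice and 42.8% to 44.7% in WT mice. KO mouse 3 was highest in both genes and WT mouse 2 came second. mt-Co3 had 61.1, 48.8 and 98 CPM in KO mice, against 37.3, 58.3 and 66.3 CPM in WT mice (0.36 ± 0.3). mt-Co2, which binds cytochrome c, had 156, 95.3 and 146 CPM in KO mice, against 92.1, 222 and 194 CPM in WT mice (−0.36 ± 0.34). WT mice 2 and 3 were highest and WT mouse 1 lowest for mt-Co2; without WT mouse 1 the value was −0.65 (unadjusted p under 0.05, edgeR adjusted p = 0.36), and summed with Gm28661 it was −0.11.

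The same mouse was highest for most subunits. KO mouse 3 had the highest level for 57 of the 75 tested nuclear subunits (76%), for all 11 of complex IV and for 11 of the 13 mitochondrial genes. Over all genes tested KO mouse 3 was highest for 16.3% and lowest for 18.5%. The lowest mouse was WT mouse 1 for 27 of the nuclear subunits and KO mouse 2 for 24. The median difference of a nuclear subunit's log2 level from its mean over the 6 mice was −0.04, −0.09 and 0.19 in KO mice, against −0.11, 0.03 and −0.01 in WT mice. For the mitochondrial genes it was 0.06, −0.24 and 0.42 in KO mice, against −0.37, 0.18 and −0.09 in WT mice. KO mouse 3 thus had the highest median and KO mouse 2 the second lowest in both sets, and without KO mouse 3 the median log2 fold change was −0.02 for the mitochondrial genes and −0.02 for the nuclear members.

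Hepatocyte markers set KO mouse 3 apart as well. Their median difference from the 6-mouse mean was 0.04, −0.08 and 0.28 in KO mice, against −0.1, −0.05 and −0.19 in WT mice. KO mouse 3 was thus highest for hepatocyte markers and for both subunit sets, while WT mouse 3 was lowest for the markers and not for the subunits. KO mouse 3 also had the smallest TMM scaling factor, 0.921, beside 0.977 and 1.04 in the other KO mice and 0.954 to 1.10 in WT mice, and a smaller factor raises all of a library's levels. As a share of unscaled counts, the nuclear members were highest in WT mouse 3 (1.18%), with KO mouse 3 next (1.14%). The mitochondrial genes were highest in KO mouse 3 on that measure too (5.88%). The part of hepatocyte RNA and of scaling in the subunit levels was not tested.

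**Figure D5:**
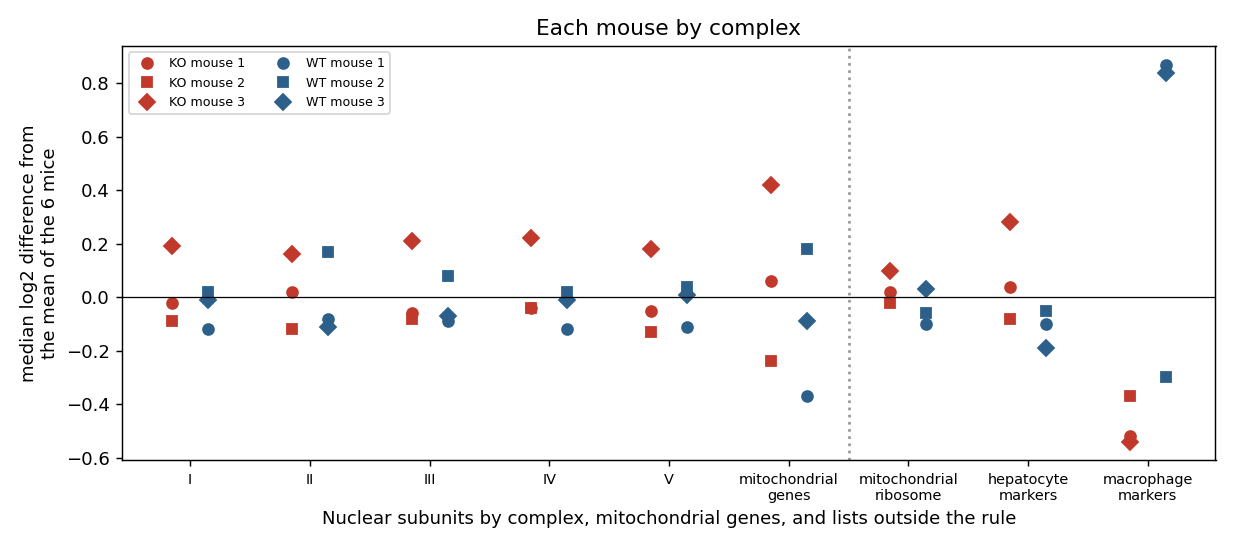
Each point is the median, over the genes of a group, of a mouse's log2 difference from the mean of the 6 mice, with KO in red left of WT in blue and symbols for mice 1, 2 and 3. KO mouse 3 is highest among the nuclear subunits of complexes I, III, IV and V and among the mitochondrial genes (0.42), whereas macrophage markers set WT mice 1 and 3 apart from the rest.

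Promoters of the nuclear members were examined for 3 sequence motifs of factors known to act on respiratory genes: NRF1 (GCGCA, any base, then GCGC), ETS factors such as GABP (CCGGAAG) and YY1 (AAGATGGC), on both strands, in the 300 bases from 250 before to 50 after each RefSeq transcription start (GRCm38.p6). A promoter was found for 74 of the 94 nuclear members. The NRF1 letters were in 19 (25.7%), beside 5.19% of 27025 genes with a promoter, the ETS letters in 18 (24.3%), beside 9.93%, and the YY1 letters in 10 (13.5%), beside 3.19%. In all 40 (54.1%) held at least 1 of the 3, beside 16.4% of all genes, and 0 held all 3. The 27025 genes were not limited to those expressed in liver. The shares thus do not tell whether the motifs are commoner here than in other expressed genes. Where a gene has several starts, a match in any of them counted. The promoters of Cox6a1 (chr5:115348909-115349208, minus strand) and Ndufs6 (chr13:73328433-73328732, minus strand) are printed with matches in capitals, because Cox6a1 is the nuclear subunit with the highest level per length that holds an NRF1 or ETS match, and Ndufs6 the one with the highest level that holds a YY1 match. A match describes the letters only and is not a shown binding site.
Cox6a1 promoter: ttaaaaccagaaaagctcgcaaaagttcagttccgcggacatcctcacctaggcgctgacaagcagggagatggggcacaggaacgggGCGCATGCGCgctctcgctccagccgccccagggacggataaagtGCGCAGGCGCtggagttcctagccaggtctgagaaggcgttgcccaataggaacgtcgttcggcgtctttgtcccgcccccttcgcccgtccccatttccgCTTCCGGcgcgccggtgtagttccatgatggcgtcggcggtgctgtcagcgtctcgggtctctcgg
Ndufs6 promoter: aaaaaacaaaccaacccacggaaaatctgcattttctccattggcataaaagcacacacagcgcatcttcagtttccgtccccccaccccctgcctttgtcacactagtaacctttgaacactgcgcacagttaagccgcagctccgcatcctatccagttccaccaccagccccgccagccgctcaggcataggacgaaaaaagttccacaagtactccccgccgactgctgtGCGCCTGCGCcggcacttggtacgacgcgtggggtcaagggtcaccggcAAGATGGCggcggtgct

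Genes of those factors and of mitochondrial gene expression did not pass the edgeR threshold either. Of the 20 tested regulators of mitochondrial biogenesis, 16 lay above 0 (median 0.18), against 48.9% of all genes tested, and 0 had an unadjusted p under 0.05. Gabpa, the ETS factor of the motif, had 60.3, 56.2 and 61 CPM in KO mice, against 55.1, 47.2 and 38.5 CPM in WT mice (0.33 ± 0.15, edgeR adjusted p = 0.393). Its genotypes did not overlap, as for 8.81% of all genes tested with KO above WT, and it shares 397 exon bases with Atp5j on the opposite strand. Nrf1 lay at 0.26 ± 0.15, the coactivator gene Ppargc1a at −0.3 ± 0.31 and its partner Esrra at −0.31 ± 0.16.

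Among 29 genes that copy and express mitochondrial DNA, 25 lay above 0 with a median of 0.13, and 4 were higher in KO mice at an unadjusted p under 0.05. Of all genes tested, 48.9% lay above 0 and 5.22% were higher at that p. Twnk, the mitochondrial helicase, had 52.8, 53.1 and 50.8 CPM in KO mice, against 30.9, 42.5 and 29.7 CPM in WT mice (0.61 ± 0.15, edgeR adjusted p = 0.217). The others were Tfb1m (0.73 ± 0.21), Tefm (0.6 ± 0.17) and Mtpap (0.35 ± 0.15), each without overlap between the genotypes, as for 8.81% of all genes tested in that direction. Tfam, which packages mitochondrial DNA, lay at 0.12 ± 0.11, the polymerase gene Polrmt at 0.14 ± 0.15 and Lrpprc, which stabilises mitochondrial mRNA, at −0.08 ± 0.12. Of 77 mitochondrial ribosome genes 4 had an unadjusted p under 0.05, all higher in KO mice against 5.22% of all genes tested (median of the list 0.09), with Mrpl9 at 0.45 ± 0.13 the smallest p. None of these genes passed the adjusted threshold in edgeR or DESeq2.

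The remaining lists of the same pathway were near 0. Assembly factors outside the rule had a median of 0.09 over 43 genes, of which 2 were higher (Tmem186 at 0.48 ± 0.14 and Coa4 at 0.65 ± 0.25) and 1 lower (Cox19 at −0.28 ± 0.11) at an unadjusted p under 0.05, against 5.22% higher and 7.59% lower among all genes tested. Cytochrome c1 (Cyc1), a complex III subunit that the rule leaves out, lay at −0.03 ± 0.12 and cytochrome c (Cycs) at 0.08 ± 0.16. Coenzyme Q synthesis (13 genes, median −0.07) and the tricarboxylic acid cycle with pyruvate dehydrogenase (18 genes, median −0.01) had 0 genes at an unadjusted p under 0.05. Of 26 carriers and import genes 2 were higher at that p (Vdac3 at 0.29 ± 0.1 and Hspa9 at 0.38 ± 0.15) and 1 lower, the adenine nucleotide carrier Slc25a4 (−0.83 ± 0.3), beside the same shares of all genes.

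Ucp2, which encodes an inner-membrane carrier of the uncoupling protein family, was the one gene of the mitochondrial lists here to pass an adjusted p of 0.05 with any tool. It had 33.7, 38.4 and 39.6 CPM in KO mice, against 69.7, 49.7 and 65.7 CPM in WT mice, and every KO mouse lay below every WT mouse. It fell by 0.72 on the log2 scale in DESeq2 (adjusted p = 0.0161), whereas edgeR gave −0.73 ± 0.15 with an adjusted p of 0.217. Ucp2 is known to be abundant in macrophages, and WT mouse 2, the lowest WT mouse for Ucp2, was also the lowest WT mouse for the summed macrophage markers (536 CPM). The part of macrophage RNA in that value was not tested. The list of 15 tested uncoupling and redox genes had a median of −0.06; besides Ucp2, Txn2 (mitochondrial thioredoxin, 0.29 ± 0.12) had an unadjusted p under 0.05. Nnt, the proton-driven transhydrogenase whose gene is truncated in C57BL/6J mice, had 1.73, 0.701 and 1.23 CPM in KO mice, against 1.96, 0.848 and 0.662 CPM in WT mice (0.04 ± 0.53), so the genotypes overlapped.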

How the data were processed

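Poly(A) liver RNA from 6 mice was sequenced, 1 library per mouse. The authors deposited raw counts of reads per Ensembl gene from reads aligned to GRCm38.p6; the tools listed in the submitters' processing notes are featureCounts 1.5.0-p3, HISAT2 2.0.5 and StringTie 1.3.3b. The strand setting, the annotation release and the handling of reads with several matches were not given in those notes. IDs were matched to GENCODE M21 (54409 of 54682 rows). The 150 rows with no gene name (0.273% to 0.509% of counts) were left out.

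Counts were filtered with filterByExpr, TMM-scaled and tested in edgeR 4.0.16 (robust quasi-likelihood, R 4.3.3), and p values adjusted by Benjamini-Hochberg across the 14145 genes kept (called at 0.05; common BCV, the coefficient of variation between mice, 0.237). Alternatives were limma 3.58.1 (voom) and DESeq2 1.42.0, other normalisations, filters, a mouse-number block and leaving out each library. Copies were found with BLAST 2.17.0 on GENCODE transcripts, and summing them with their gene was chosen after seeing the data. Mouse deviations use log2(CPM + 0.5). The edgeR script was tested on simulated data with the same spread between mice for every gene and changes larger than most seen here. That test does not tell how well small differences are found. Intervals and count floors cover counting error or spread between these mice only.

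Values per mouse were given for the mitochondrial genes, in each complex for the 3 nuclear subunits of smallest p and the 2 of highest level per length, for the 3 accessory factors of smallest p and for isoform families; Ndufa12, the copies and the members singled out when a library was left out were chosen after their values were seen. Members and lists were chosen with earlier results of these data known. The values of 1 member, which is in all counts and medians, are not reported here.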

Additional observations from a re-analysis of the deposited data

How the results depend on the processing

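No member passed an adjusted p of 0.05 under any of the 15 alternatives. Apart from DESeq2 (287 genes) and the fit without WT mouse 2, the alternatives called only 0 to 6 genes in the whole table. A member that does not pass there says little about that member. At an unadjusted p under 0.05, 3 members were higher in KO mice in edgeR with all mice, and 1 (Atp5s) with mouse number as a replicate block. The other alternatives that keep all mice gave 2 or 3. Over all genes, in either direction, 1812 of 14145 had such a p in the main fit and 1353 of 14145 with the block. Leaving out each library gave 1 to 5 members higher and 0 to 1 lower. Over all genes those fits ran from 979 of 14735 (without KO mouse 3) to 2433 of 14635 (without WT mouse 2, where 5 members were higher). The labels give no pairing of the mice by number. Same-numbered KO and WT mice had correlations of their deviations between −0.0175 and −0.01, and differently numbered mice between −0.0649 and 0.0789. With so few mice these values cannot settle whether the mice were paired. The median log2 fold change of nuclear members was 0.06 to 0.07 under the alternatives that keep all mice and −0.02 to 0.12 on leaving out a library; for mitochondrial genes it was 0.17 to 0.21 and −0.02 to 0.35, with the negative value without KO mouse 3 in both. The log2 mitochondrial to nuclear ratio differed by 0.02 to 0.17 when a library was left out. Leaving out WT mouse 2 gave 151 genes past the adjusted threshold over all genes, against 2 with all mice, and no member among them. Counts of 48 or fewer per library limit mt-Atp8, Cox7a1, Ndufa4l2 and the isoforms that were not tested.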
